A study of Mus musculus with 16 samples.

Results

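The comparison described here adds loss of Shp2 to active Mek1 in mouse skin: the 4 arrays of Double skin were set against the 4 arrays of Mek1gof skin, which are 8 of the 16 arrays of the study. Double mice carried the Krox20-cre driver with both a floxed Shp2 gene and the gain-of-function Mek1fstop/+ allele, and Mek1gof mice carried the driver with the Mek1fstop/+ allele alone. The other 8 arrays served as the matching comparison without active Mek1: Shp2lof mice (Krox20-cre with floxed Shp2) and control mice, 4 arrays each. All mice were 15 days old and of a mixed C57/BL6;129Ola background, and RNA came from whole dorsal skin, so fewer cells of a type and less RNA per cell cannot be told apart. Arrays 1 and 2 of every group lay on slide 1 and arrays 3 and 4 on slide 2. Within a slide the position went with the group, so these cannot be told apart. No label says that each sample came from its own animal, so the p-values measure the spread between these samples, part of which may be technical. Sex-linked levels, given below, differed widely between arrays of a group, so a group is not repeats of a single sample.

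Shp2, encoded by Ptpn11, is a tyrosine phosphatase that carries signals from receptor tyrosine kinases to Ras, and from there to Raf, Mek and ERK. Mek1, encoded by Map2k1, phosphorylates ERK, so an active Mek1 feeds the pathway downstream of Shp2. The Krox20-cre driver follows Egr2, a gene known for its expression in Schwann cells and hair follicles, so only part of the cells in skin would recombine. The comparison asks which part of the expression change with Shp2 loss is still seen where Mek1 is active.

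Probe signals were background-corrected and quantile-normalized on a log2 scale, and 10232 genes with detected signal were tested. The 8 arrays had median raw signals between 71.33 and 85.27 and between 13109 and 13733 detected probes. Basal keratinocyte Krt5 read between 10.82 and 11.77 and Krt14 between 14.94 and 15.23 on all 8 arrays, on the log2 scale, so the epidermal markers of skin were present. Ptpn11 read 12.85, 12.91, 13.15 and 12.86 in Double skin, against 13.13, 12.84, 12.82 and 12.97 in Mek1gof skin, a log2 difference of 0.00 (adjusted p = 0.996). Map2k1 differed by 0.19 (adjusted p = 0.821) and Egr2 by -0.46 (adjusted p = 0.452). Where the Ptpn11 probe lies relative to the deleted part is not stated, so its level in whole skin does not check the labels.

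Few genes passed the threshold where Shp2 loss was added to active Mek1. By limma, with Benjamini-Hochberg adjustment and a threshold of 0.05, 29 genes passed, 0.283% of those tested: 18 were higher in Double skin (0.176%) and 11 were lower (0.108%). Of these, 12 higher and 4 lower genes differed by more than 2-fold. At an unadjusted p under 0.05, 1008 genes (9.85%) passed. The arrays of both groups did not overlap for 27 of the 29, against 467 genes (4.56%) in all. The exceptions were Clic6 and Bglap, where 1 Double array lay inside the range of the Mek1gof arrays. All 29 had the same sign on slide 1 and slide 2, as did 5282 of all genes. The 29 were chosen by their difference over these same arrays, which by itself favours equal signs on the slides and no overlap. The median log2 difference of all genes was 0.01.

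**Figure D1:**
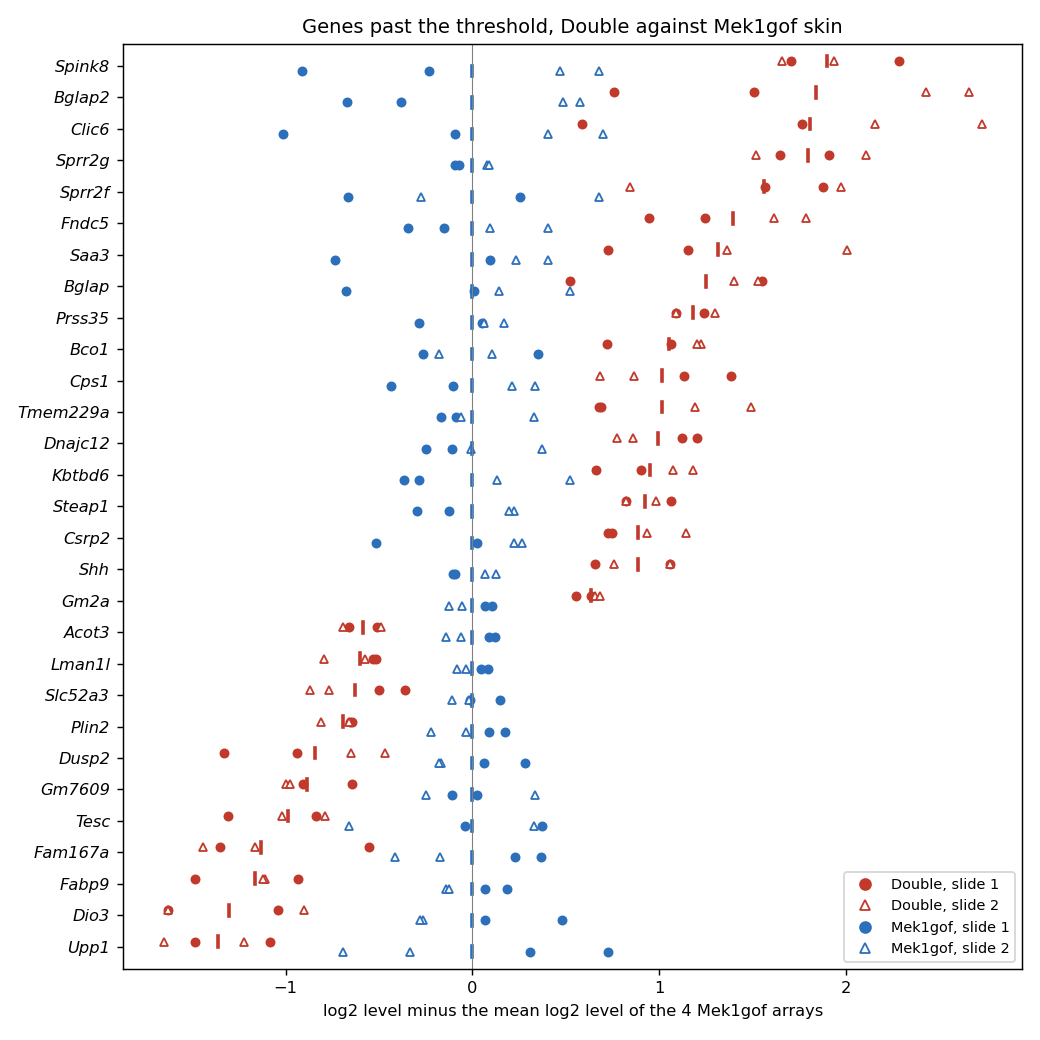
Log2 level of each of the 29 genes past the threshold on each of the 8 arrays, minus the mean of the 4 Mek1gof arrays (x axis), with Double arrays drawn above Mek1gof arrays in each row. Filled circles are slide 1, open triangles slide 2 and vertical bars group means. The Double arrays stand apart from the Mek1gof arrays in every row but Clic6 and Bglap.

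The highest increases included small proline-rich proteins, which are cross-linked into the cornified envelope of keratinocytes and are induced in stressed or wounded epidermis. Sprr2g read 6.46, 6.20, 6.66 and 6.07 in Double skin, against 4.46, 4.48, 4.63 and 4.64 in Mek1gof skin. Its probe was not above background on any Mek1gof array, so it was at least 2.61-fold higher in Double skin (adjusted p = 0.00123); that bound sets the Double mean against the lowest detected signal of each Mek1gof array. Sprr2f read 8.19, 7.88, 8.29 and 7.16 in Double skin, against 6.57, 5.65, 6.04 and 6.99 in Mek1gof skin, a log2 difference of 1.56 ± 0.30 (SE, 2.96-fold, adjusted p = 0.0331). The lowest Double array was only just above the highest Mek1gof array for Sprr2f, while the groups were far apart for Sprr2g. Both genes were also higher in Shp2lof than in control skin, by 2.28 for Sprr2g, which was detected on 2 of 4 control arrays, and by 2.12 for Sprr2f. Members of this family are alike in sequence, so a probe can read its neighbours.

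Osteocalcin genes were the other pair that rose together. Bglap and Bglap2 encode osteocalcin, the bone matrix protein known from osteoblasts, and are near-identical neighbours that their probes may not separate. Bglap2 read 6.78, 7.53, 8.68 and 8.45 in Double skin, against 5.64, 5.35, 6.60 and 6.51 in Mek1gof skin (log2 difference 1.84 ± 0.35 SE, 3.58-fold, adjusted p = 0.0289). Every Double array was above every Mek1gof array, and both groups read higher on slide 2. Bglap differed by 1.25 ± 0.25 (adjusted p = 0.0384), and its second probe by 0.91 (adjusted p = 0.132). That test held all kept probes of this gene beside 1 probe for every other gene. Second probes of the genes below were tested in the same way. Of the list of bone-type genes 2 of 4 measured members passed, these same ones. Sp7, a transcription factor of osteoblasts, differed by 0.49 and Alpl, alkaline phosphatase, by 0.24, and neither passed.

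The promoters of Sprr2f and Bglap are shown because these genes stand for both pairs that rose together. They are 300 bases each from RefSeq (GRCm38.p6) and run across the start site, Sprr2f at chr3:92364937-92365236 on the plus strand and Bglap at chr3:88384417-88384716 on the minus strand. Capitals mark an AP-1 site (TGANTCA), the motif bound by Fos and Jun proteins, and a TATA box (TATAAA).
Sprr2f: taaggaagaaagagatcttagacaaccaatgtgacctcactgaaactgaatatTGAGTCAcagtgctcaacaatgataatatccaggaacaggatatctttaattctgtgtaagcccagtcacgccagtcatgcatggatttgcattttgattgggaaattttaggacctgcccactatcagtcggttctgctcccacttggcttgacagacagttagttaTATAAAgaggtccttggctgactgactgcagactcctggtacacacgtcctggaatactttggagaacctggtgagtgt
Bglap: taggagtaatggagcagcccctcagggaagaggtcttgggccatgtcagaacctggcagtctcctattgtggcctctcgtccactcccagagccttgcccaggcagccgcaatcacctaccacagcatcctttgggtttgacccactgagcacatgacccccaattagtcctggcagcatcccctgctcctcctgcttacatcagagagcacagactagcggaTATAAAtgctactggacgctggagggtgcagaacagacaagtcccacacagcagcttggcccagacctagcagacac
The AP-1 site of Sprr2f began at -197 and its TATA box at -29 from the start site, and the TATA box of Bglap at -27. A RUNX site (AACCACA) was also searched for, and these letters are in neither window. All motifs were searched on both strands. Of the 29 genes 17 had a promoter entry: 2 held an AP-1 site, 4 a TATA box and 0 a RUNX site. Among 8235 tested genes with an entry these shares were 7.33% for AP-1, 10.5% for TATA and 4.68% for RUNX; among all 32851 promoters they were 7.81%, 13.6% and 5.27%. With so few entries the counts are a description only.

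Among secreted signals, Shh, the hedgehog ligand made by hair follicle epithelium, read 8.19, 7.79, 8.19 and 7.89 in Double skin, against 7.03, 7.04, 7.20 and 7.26 in Mek1gof skin. The log2 difference was 0.89 ± 0.16 (SE, 1.85-fold, adjusted p = 0.0280), with no overlap and little spread in either group. A second Shh probe differed by 0.68 and did not pass (adjusted p = 0.224). The other 5 measured genes of the hedgehog list did not pass: the receptors Ptch1 and Smo differed by -0.05 and 0.03, and the transcription factor Gli3 by -0.24. Ptch1, which is itself induced by hedgehog signals, was detected on only 2 arrays of each group.

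Spink8 and Saa3 were also higher. Spink8, of the Kazal family of protease inhibitors, had the largest difference of all 29, at 1.90 ± 0.31 (SE, adjusted p = 0.0135). It read 7.64, 8.22, 7.87 and 7.59 in Double skin, against 5.02, 5.70, 6.40 and 6.61 in Mek1gof skin, so all Double arrays were higher and the Mek1gof arrays spread by slide. Saa3, an acute-phase apolipoprotein, was higher by 1.31 (adjusted p = 0.0280), and its probe was detected on 3 of 4 Mek1gof arrays. Prss35, a protease-like secreted protein, read between 8.12 and 8.33 in Double skin, against 6.74 to 7.20 in Mek1gof skin (1.18 ± 0.18 SE, adjusted p = 0.00723).

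Membrane proteins and enzymes made up most of the rest. Fndc5, the precursor of irisin, read 6.45, 6.75, 7.12 and 7.29 in Double skin, against 5.16, 5.35, 5.60 and 5.91 in Mek1gof skin (1.40 ± 0.20 SE, adjusted p = 0.00723), and its second probe gave 1.18. Clic6, of the chloride intracellular channel family, read 6.68, 7.86, 8.82 and 8.25 in Double skin, against 5.08, 6.0, 6.50 and 6.79 in Mek1gof skin. Its difference was 1.81 ± 0.36 (adjusted p = 0.0401), and Double array 1 lay below Mek1gof array 4. Bco1, which cleaves beta-carotene, was higher by 1.05, and Steap1, of a metalloreductase family, by 0.93. Dnajc12, a co-chaperone, was higher by 0.99 and Gm2a, a lysosomal lipid-binding protein, by 0.63. Cps1, the first enzyme of the urea cycle, was higher by 1.02, but its probe was detected on 2 of 4 Mek1gof arrays and a second probe gave 0.28 (adjusted p = 0.584). Tmem229a was higher by 1.01, Kbtbd6, an adaptor of a ubiquitin ligase, by 0.95 and Csrp2, a LIM-domain protein, by 0.89.

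The 11 lower genes included enzymes, a phosphatase of ERK and lipid genes. Upp1, uridine phosphorylase, read 8.75, 8.35, 8.18 and 8.61 in Double skin, against 10.56, 10.14, 9.14 and 9.50 in Mek1gof skin. It fell by 1.36 ± 0.25 on the log2 scale (SE, 2.57-fold, adjusted p = 0.0280), and all 3 of its probes passed, the others at -1.69 and -1.57. The Mek1gof arrays of slide 1 were the highest, and still no Double array reached the lowest Mek1gof array. Dio3, the deiodinase that inactivates thyroid hormone, fell by 1.30, and read between 4.82 and 5.55 in Double skin, against 6.17 to 6.93 in Mek1gof skin; it was detected on 2 of 4 Double arrays, so the fall may be understated. Dusp2, a nuclear phosphatase that removes phosphate from ERK, read 9.06, 9.45, 9.92 and 9.74 in Double skin, against 10.67, 10.45, 10.22 and 10.21 in Mek1gof skin. Its difference of -0.84 ± 0.17 (adjusted p = 0.0415) was -1.30 on slide 1 and -0.38 on slide 2. A second Dusp2 probe gave -0.86 and did not pass (adjusted p = 0.287).

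Lipid genes among the lower ones were Plin2, a coat protein of lipid droplets, at -0.69, Fabp9, a fatty acid binding protein, at -1.16, and Acot3, an acyl-CoA thioesterase. Acot3 was not above background on any Double array and was at least 1.18-fold lower there (adjusted p = 0.0289). Tesc, a calcium-binding protein, fell by 0.99, Fam167a by 1.13 and the predicted gene Gm7609 by 0.88. Slc52a3, a riboflavin transporter, fell by 0.63. Lman1l, of a lectin family, fell by 0.60, and its second probe gave -0.17 (adjusted p = 0.672).

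The count depends on the arrays used. Each SE and p-value above rests on a spread estimated over all 16 arrays, not on both groups compared alone. For Clic6 the SD was 0.91 in Double and 0.75 in Mek1gof skin, against 0.11 in Shp2lof and 0.22 in control skin. The printed SE thus understates the spread of the groups shown for Clic6. Sprr2g went the other way, at 0.26 and 0.10 against 0.47 and 0.36. With only the 8 arrays of both groups in the fit, 3 genes passed instead of 29. Leaving out Mek1gof 1 left 8 genes, Mek1gof 2 left 5, Double 2 left 15, Double 3 left 10 and Double 4 left 13. All 29 kept their sign in every run, and 5 (Sprr2g, Dnajc12, Fndc5, Prss35 and Steap1) passed whichever array was left out. Sprr2g alone passed under every other setting as well.

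Just outside the threshold were genes with large differences. Hbb-b2, a beta globin, read 4.87, 5.11, 4.91 and 4.54 in Double skin, against 6.20, 8.44, 5.68 and 8.84 in Mek1gof skin (log2 difference -2.43, adjusted p = 0.0635), and it was detected on 1 Double array and all 4 Mek1gof arrays. The other globin genes did not follow: Hba-a1 read 13.60 to 14.32 in Double skin and 13.60 to 14.11 in Mek1gof skin. Dsg4, a desmosomal cadherin of the hair shaft, read 6.72, 6.62, 6.53 and 5.90 in Double skin, against 7.58, 7.56, 7.20 and 7.10 in Mek1gof skin (-0.92, adjusted p = 0.0543).

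The 29 genes were read next beside the effect of Shp2 loss without active Mek1, whose group means share no array with the present comparison. Both comparisons come from the same fit and share each gene's estimate of spread. A gene with a small spread thus passes more easily in both, so the lists are not independent. In Shp2lof skin 261 genes passed against control (2.55%), 154 higher (1.51%) and 107 lower (1.05%). That count was 164 without control 2, 137 without control 3, 164 without Shp2lof 1, 130 without Shp2lof 2 and 154 without Shp2lof 4. Of the 29 genes 18 (62.1%) were among them, which is 6.90% of the 261, and all 18 had the same direction in both. The other 11 also had the same sign in Shp2lof skin, and 0 of the 29 passed the test that both differences are unequal, a test that 9 genes passed in all (0.088%). At an unadjusted p under 0.05, 734 genes (7.17%) passed that test. The slope through the origin of Double minus Mek1gof on Shp2lof minus control was 0.931 over the 29, which were chosen for being large in the first of these. Shh, for example, differed by 0.89 in Double skin and by 1.53 in Shp2lof skin, and the difference between both, -0.64, did not pass (adjusted p = 0.528).

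Genes that Shp2 loss changed in Shp2lof skin mostly differed less where Mek1 was active. Over the 261 genes the slope was 0.289, so a difference of 1 on the log2 scale in Shp2lof skin went with about 0.289 in Double skin. In all, 214 of the 261 (82.0%) kept the sign, against 6271 (61.3%) of all genes tested, and 254 had the smaller size in Double skin, against 5585 (54.6%) of all genes. The 261 were chosen for a large difference in Shp2lof skin, which by itself favours a smaller one in the other comparison. With the genes chosen on one slide and their Shp2lof difference taken from the other, 93 of 108 genes chosen on slide 1 and 136 of 175 chosen on slide 2 had the smaller size in Double skin. There the Shp2lof difference came from 2 arrays a group and Double minus Mek1gof from 4. The former is thus noisier, which also favours the smaller size in Double skin, and the share over all genes was not computed. The slope was 0.297 for the 154 higher genes, with 126 of the same sign, and 0.277 for the 107 lower ones, with 88 of the same sign. Over all genes tested it was 0.294. These include the 261, and the slope over the other genes alone was not computed. Across the 261 genes the correlation was 0.668 (Pearson) and 0.647 (Spearman), given as a description, since genes share arrays and are not independent. With both differences and the choice of genes taken from slide 2 alone, the slope was 0.176. With the genes fixed, slide 1 differences of Double minus Mek1gof gave 0.339 and slide 2 differences gave 0.238.

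An array's score, its own slope on the Shp2lof effect of the 261 genes after subtracting the Mek1gof mean, was 0.284, 0.289, 0.283 and 0.300 in Double skin, against -0.065, -0.041, 0.050 and 0.056 in Mek1gof skin. The 4 Double arrays lay within 0.02 of each other and above all Mek1gof arrays, whose mean is 0 by construction.

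**Figure D2:**
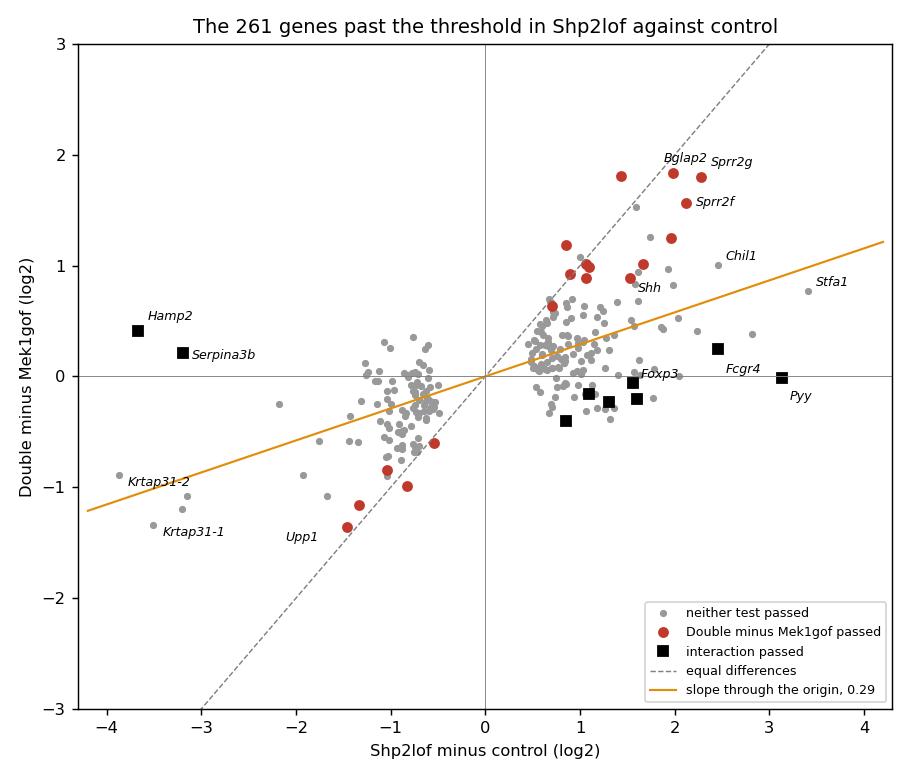
Each point is one of the 261 genes past the threshold in Shp2lof against control skin; the x axis gives that log2 difference and the y axis the log2 difference of Double minus Mek1gof. Red points also passed in Double against Mek1gof (18 genes), black squares passed the interaction test (9 genes), and the slope through the origin is 0.289. The genes were chosen by the x axis, and 254 of them have the smaller size on the y axis, against 5585 of all 10232 genes.

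Some of the strongest changes of Shp2lof skin were close to 0 with active Mek1. Pyy, a gut peptide hormone, read 4.84, 5.0, 4.44 and 4.65 in Double skin, against 4.87, 4.97, 4.62 and 4.53 in Mek1gof skin, detected on 1 array of each. It read 8.80, 9.28, 8.77 and 9.29 in Shp2lof skin, against 5.06, 6.50, 6.07 and 5.96 in control skin. The interaction, Double minus Mek1gof minus the Shp2lof effect, was -3.14 ± 0.33 (SE, adjusted p = 0.000246). For Hamp2, a hepcidin hormone gene, Double minus Mek1gof was 0.41 and Shp2lof minus control -3.67 (interaction 4.08, adjusted p = 0.00273). Its Double and Mek1gof arrays read between 4.67 and 7.03, all below the control arrays, at 10.17 to 11.12; it was detected on 3 Double and 2 Mek1gof arrays, so its difference between them has a floor.

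The other 7 genes that passed the interaction were Fcgr4, Foxp3, Irf1, Tap2, Serpinb3a, Serpina3b and Slc2a1. Fcgr4, an Fc receptor of macrophages and neutrophils, differed by 0.25 in Double against Mek1gof skin and by 2.45 in Shp2lof against control skin (interaction -2.21, adjusted p = 0.00273). Foxp3, the transcription factor of regulatory T cells, differed by -0.06 in Double and by 1.56 in Shp2lof skin (interaction -1.62). Irf1 and Tap2, of interferon response and antigen processing, had interactions of -1.25 and -1.26. The glucose transporter Slc2a1 had an interaction of -1.53. The protease inhibitor Serpina3b had one of 3.41, which only just passed (adjusted p = 0.0499). Double minus Mek1gof for Serpina3b was 1.36 on slide 1 and -0.94 on slide 2, unequal by the direct test between slides (adjusted p = 0.0386). Serpinb3a was detected on all 4 Shp2lof arrays but on 1 Double, 1 Mek1gof and 0 control arrays, so its size in the other groups, and its interaction, cannot be given exactly. Of the 9 genes, 7 (0.0684% of all genes) had a negative interaction and 2 (0.0195%) a positive one. The count was 19 without Double 1, 16 without Double 2 and 17 with slide as a block.

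Other large Shp2lof changes did not pass the interaction test. Stfa1, a stefin protease inhibitor of stressed epidermis, differed by 0.77 in Double skin, with 2.40 on slide 1 and -0.86 on slide 2, and by 3.41 in Shp2lof skin. Krtap31-1, a keratin-associated protein of the hair shaft, differed by -1.34 in Double skin, with -2.66 on slide 1 and -0.02 on slide 2, and by -3.51 in Shp2lof skin. Chil1, a chitinase-like protein, differed by 1.00 in Double and by 2.45 in Shp2lof skin. Epgn, a ligand of the EGF receptor, differed by 0.00 in Double and by 2.04 in Shp2lof skin; its interaction of -2.04 missed the threshold (adjusted p = 0.0649) and passed with slide as a block (adjusted p = 0.0494). Cyp2g1, a cytochrome P450, differed by -1.20 in Double and by -3.20 in Shp2lof skin.

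Slide split the 8 arrays more strongly than genotype. The first principal component held 38% of the variance and put all 4 arrays of slide 1 below all 4 of slide 2, and the second held 21%. A fit of slide 1 alone, 2 arrays a group, called 192 genes (1.88%), with 61 higher (0.596%) and 131 lower (1.28%). Slide 2 alone called 76 (0.743%), with 33 higher (0.323%) and 43 lower (0.42%). Only 8 genes were called on both, 7 with the same sign. Of the 29 genes, 21 were called on slide 1 alone and 9 on slide 2 alone. A direct test of the difference between slides passed for 130 genes (1.27%), of which 125 had opposite signs on each. Without Mek1gof 1, 2, 3 or 4 that count was 27, 52, 8 or 58, and without Double 2, 3 or 4 it was 22, 69 or 11. None of the 29 turned its sign between slides, which their choice over the same arrays favours. With slide as a block 37 genes passed (0.362%), all 29 among them.

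**Figure D3:**
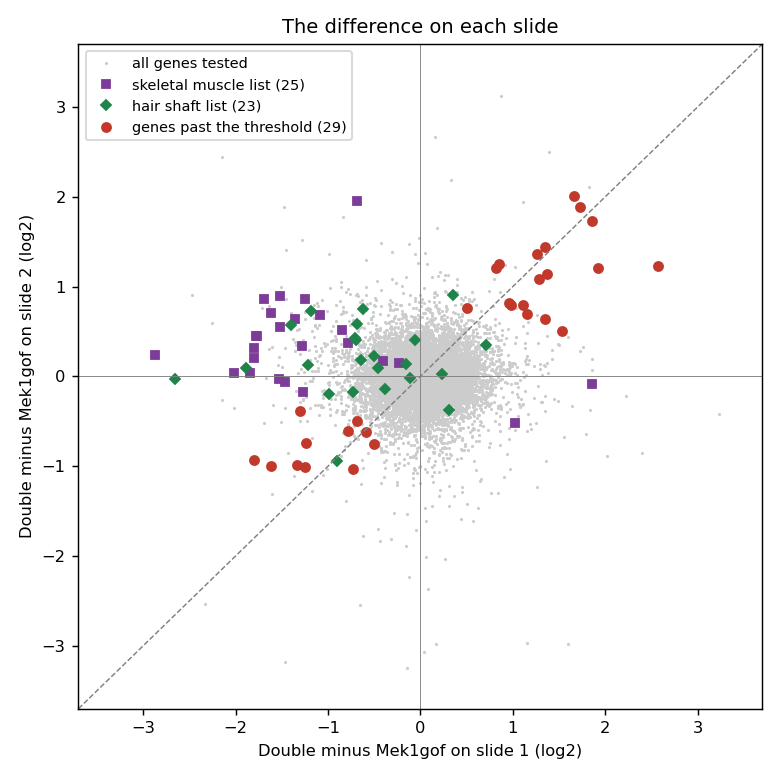
The log2 difference of Double minus Mek1gof on slide 1 (x axis) and on slide 2 (y axis) for all 10232 genes in grey, with the 29 genes past the threshold in red, 25 skeletal muscle genes as purple squares and 23 hair shaft genes as green diamonds. Red points lie in the quadrants of equal sign, and most muscle points lie at the left, above the dashed line of equal differences.

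Skeletal muscle genes were among those whose difference changed with slide, 15 of the 130. Dorsal skin lies on the panniculus carnosus, a sheet of striated muscle. The mean log2 level of 25 muscle genes was 9.49 and 9.43 on the Double arrays of slide 1, against 10.61 and 10.67 on the Mek1gof arrays of that slide. On slide 2 it was 9.77 and 10.41 in Double skin, against 9.63 and 9.79 in Mek1gof skin. The list's median difference was -1.47 on slide 1 and 0.34 on slide 2, beside 0.02 and 0.00 for all genes. On slide 1 alone 18 members were lower and 2 higher. In the whole comparison 0 of the 25 passed. The summed linear level lay between 55460 and 109900 in Double skin, against 73540 to 123400 in Mek1gof skin, and none of the list's members was at 0. Myh1, a fast muscle myosin, differed by -0.69 on slide 1 and by 1.95 on slide 2. With the muscle level as a covariate 15 genes passed instead of 29, and the part of muscle tissue in the other genes' differences was not tested.

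Sex-linked levels went with slide too. Xist, expressed from the inactive X, read 9.13, 10.04, 5.55 and 6.96 in Double skin, against 9.29, 8.82, 5.02 and 5.77 in Mek1gof skin. Eif2s3y, on the Y chromosome, read 4.64, 4.31, 10.63 and 4.39 in Double skin, against 5.10, 6.77, 10.58 and 10.80 in Mek1gof skin. Xist was thus high on slide 1 and Eif2s3y on slide 2, with Double 4 low for Eif2s3y and Mek1gof 2 raised for both. In these 8 arrays slide and sex-linked level can hardly be told apart. With the Xist level as a covariate 31 genes passed. Without Double 4, Mek1gof 2 and the similarly atypical Shp2lof 4, 1 gene passed, Sprr2g.

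**Figure D4:**
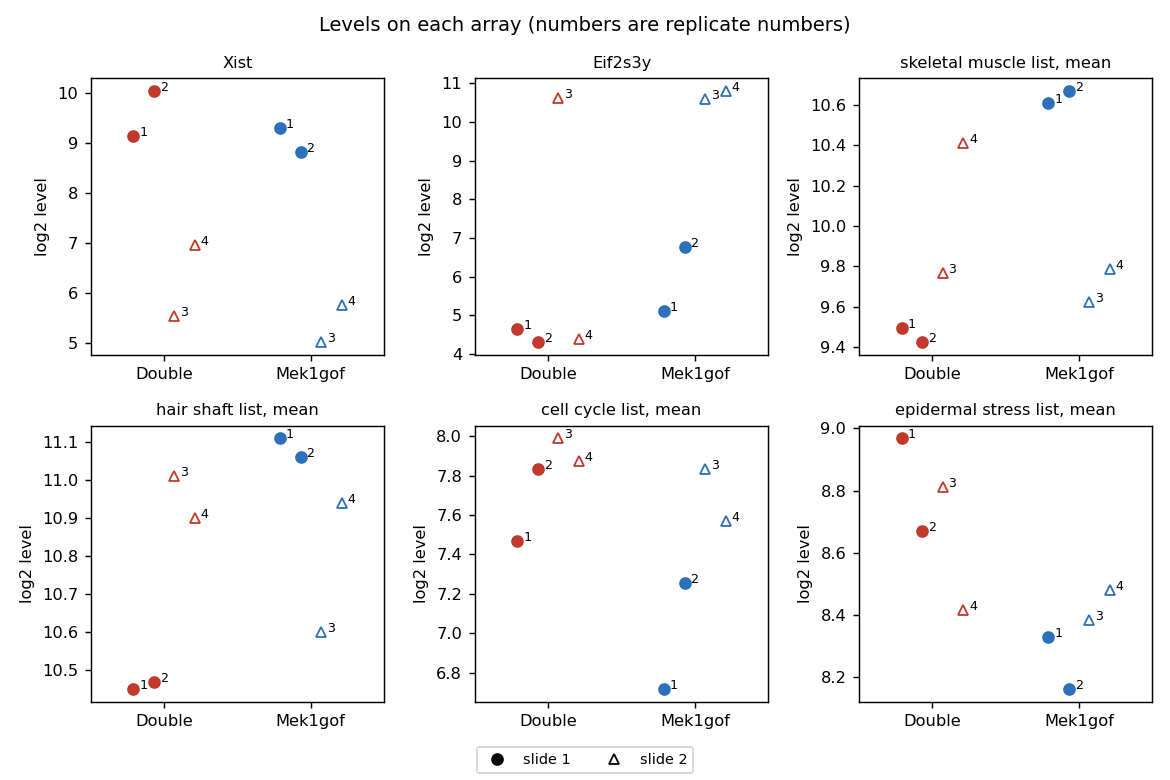
Log2 levels of Xist and Eif2s3y and mean log2 levels of 4 gene lists on each of the 8 arrays, Double left and Mek1gof right, with filled circles for slide 1, open triangles for slide 2 and the replicate number beside each point. The muscle list separates the groups on slide 1 only, at 9.43 to 9.49 in Double and 10.61 to 10.67 in Mek1gof skin.

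Gene lists of skin compartments and pathways were then read by count and median, beside a median of 0.01 and 0.283% called over all genes. Of 27 epidermal stress and wound genes 2 rose, Sprr2g and Sprr2f, with a list median of 0.38. The median was 0.33 on slide 1 and 0.09 on slide 2. A positive difference was seen for 19 of the 27, against 5290 of all 10232 genes. The direct test between slides passed for 3 members. In Shp2lof skin 11 members were higher and 1 lower, with a median of 1.16. The calprotectin subunit S100a9 differed by 0.97 and the protease inhibitor Slpi by 1.26, and neither passed. Array means of the list overlapped: 8.97, 8.67, 8.81 and 8.42 in Double skin, against 8.33, 8.16, 8.38 and 8.48 in Mek1gof skin.

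Cell cycle genes leaned higher without passing. Of 27 members 0 passed, 26 had a positive difference, against 5290 (51.7%) of all genes, and the median was 0.49. At an unadjusted p under 0.05, 11 members were higher, against 508 (4.96%) of all genes. It was 0.74 on slide 1 and 0.18 on slide 2. The list's mean was 7.47, 7.83, 7.99 and 7.88 in Double skin, against 6.72, 7.25, 7.83 and 7.57 in Mek1gof skin, so the groups overlapped and the lowest arrays were those of slide 1. Mcm6, a subunit of the replicative helicase, read 9.27, 9.59, 9.14 and 9.87 in Double skin, against 7.98, 8.11, 8.65 and 5.36 in Mek1gof skin (1.95, adjusted p = 0.162), and much of its difference lies in Mek1gof 4. E2f1, a transcription factor of S phase entry, differed by 0.61 (adjusted p = 0.340).

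In the hair shaft, sebaceous and melanocyte lists 1 gene passed, Plin2. Of 23 hair shaft genes 0 passed, with a median of -0.15, which was -0.65 on slide 1, where 6 were lower, and 0.13 on slide 2. Of 11 sebaceous gland genes 1 fell, Plin2, with a median of -0.30, which was -0.11 on slide 1 and -0.59 on slide 2. At an unadjusted p under 0.05, 5 were lower, against 500 (4.89%) of all genes. The list's mean was 8.995, 9.07, 8.62 and 8.39 in Double skin, against 9.19, 9.20, 9.22 and 9.06 in Mek1gof skin, so Double 2 alone reached the Mek1gof range. Of 10 melanocyte genes 9 were positive and 0 passed, with a median of 0.46, and the list's mean spread from 6.77 to 9.02 in Double skin and from 6.21 to 8.69 in Mek1gof skin, higher on slide 2 in both.

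In both lists of ERK pathway genes Dusp2 alone passed. Of 10 measured members of the Ras and ERK cascade 0 passed, with a median of 0.09. Of 22 feedback and target genes of ERK 1 fell, Dusp2 (4.55%), and the median was -0.05. Their summed linear level lay between 15140 and 18070 in Double skin, against 19970 to 22070 in Mek1gof skin, without overlap; on slide 1 it averaged 16610 in Double and 21190 in Mek1gof skin, and on slide 2 17730 in Double and 21020 in Mek1gof skin. The sum weighs the brightest genes most, and the list's mean log2 level overlapped, at 7.72 to 7.87 in Double and 7.84 to 8.02 in Mek1gof skin. Sums without overlap were not particular to this list. The bone-type sum lay between 291.9 and 697.3 in Double skin, against 176.3 to 274 in Mek1gof skin. For the hedgehog list it lay between 637.3 and 698.5, against 489.5 to 621.5. Dusp6, the cytoplasmic phosphatase of ERK, differed by -0.65, and the immediate early gene Egr1 by -0.35, and neither passed. Of 9 FGF ligands and receptors 0 passed: Fgf5, which ends the growth phase of hair, differed by 0.62 (adjusted p = 0.289) and Fgf1 by -0.68 (adjusted p = 0.218). Of 23 genes of the Wnt pathway 0 passed, the nearest being the inhibitor Nkd2 at 0.47 (adjusted p = 0.277) and the ligand Wnt4 at 0.63 (adjusted p = 0.340).

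Immune lists had no member past the threshold in Double against Mek1gof skin. Of 20 interferon response genes 0 passed, with a median of 0.11, where 5 were higher in Shp2lof skin. Of 21 cytokines and chemokines 0 passed, with a median of 0.01, where 5 were higher in Shp2lof skin. Of 17 macrophage and dendritic cell genes 0 passed and 3 were higher in Shp2lof skin, and 1 of them, Fcgr4, passed the interaction. The other members of these 3 lists did not pass it, while Foxp3, Irf1 and Tap2, which are on none of them, did.

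**Figure D5:**
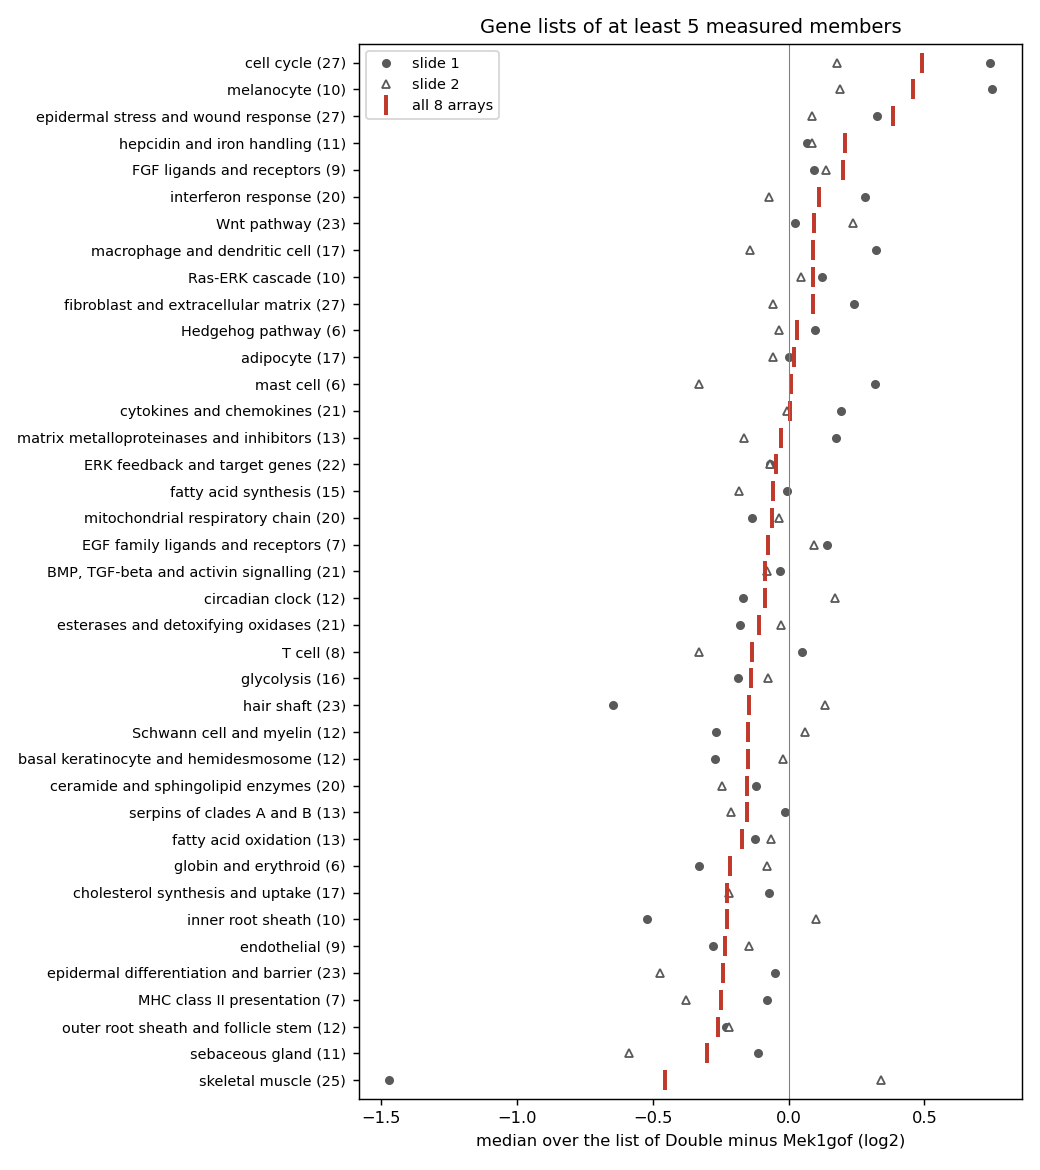
Median log2 difference of Double minus Mek1gof over each list of at least 5 measured members (number in brackets), for all 8 arrays (red bars), slide 1 alone (circles) and slide 2 alone (triangles). Skeletal muscle has the widest gap between slides, from -1.47 to 0.34, and cell cycle the highest median over all arrays, 0.49.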

How the data were processed

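Illumina bead arrays measured total RNA of dorsal skin, 4 arrays for each of 4 groups; biotin-labelled cRNA was hybridized, per the labels' protocols. The deposited intensity is the mean bead signal per probe for 25697 probes, with a detection p-value beside it per the file headers. GenomeStudio is named in the submitters' processing notes, without a version. Array medians differed, so the deposited intensity had not been normalized. The second deposited table held the same intensity, with a largest difference of 0.05. Detection columns, which share one header, were paired with the signal columns by their monotone relation. No arrays were identical.

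The neqc function of limma 3.58.1 (R 4.3.3) removed background and quantile-normalized (offset 16, which shrinks differences of dim genes). Probes with detection p under 0.05 on at least 4 arrays were kept, 14631 or 56.9%, of which 13765 had 1 gene symbol. The probe with the highest mean stood for a gene, which gave 10232 genes. Gene names came from the platform's annotation table; 23978 probes had 1 symbol and 23962 of these were matched by Entrez identifier. A single model of group means (12 residual degrees of freedom, 5.74 from the prior) was fitted to all 16 arrays with lmFit and eBayes, with Benjamini-Hochberg adjustment over all genes. Slide differences came from a model with a mean per group and slide. Values within a slide came from fits of its 8 arrays. The slope through the origin regressed Double minus Mek1gof on Shp2lof minus control.

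The named genes were the 14 largest changes each way past the threshold, up to 4 passing or else 2 members with the smallest p of each described list, the 10 largest Shp2lof changes each way, the 6 smallest interaction p-values, the 4 smallest slide-difference p-values, and Ptpn11, Map2k1 and Egr2. Steap1, Csrp2, Gm2a, Irf1, Tap2, Dusp6, Egr1, S100a9, Slpi, Sp7, Alpl, Ptch1, Smo, Gli3 and Hba-a1 were named after their values were seen. The members, the 41 lists and the tests were chosen with earlier results of these data known. Alternatives were other normalizations, filters, probe choices, covariates, blocks, single slides and each array left out. Data simulated for Double minus Mek1gof with 10232 genes gave back 20% of genes changed by 0.5, 87% by 1 and 98% by 2 on the log2 scale. Of 150 calls, 4 were false. The simulated noise was normal, independent between genes and equally wide in all groups, and it held no slide differences. These shares thus describe the method under that noise and not the real arrays, which differed by slide. The number of arrays limits the precision. Figures used Python 3.11.15 and matplotlib 3.10.9.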

Additional observations from a re-analysis of the deposited data

Results flagged for a closer look

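Values of 4 arrays were screened for 1 array far from the others in 66 group values of the genes named, and 2 stood out, where chance gives about 1 in 20. Bglap read 6.47 in Double 1, below the other Double arrays at 7.35 to 7.50. Plin2 read 6.87 in Double 4, below the other Double arrays at 7.02 to 7.04.

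The effect of Shp2 loss differed by a direct test between skin with and without active Mek1 for 9 genes, of which the 6 with the smallest p are given here. The difference was -3.14 for Pyy, -2.21 for Fcgr4, 4.08 for Hamp2, -1.80 for Serpinb3a, -1.62 for Foxp3 and -1.53 for Slc2a1, on the log2 scale. Of these, Pyy was detected on 1 Double and 1 Mek1gof array, Hamp2 on 3 Double and 2 Mek1gof arrays, and Serpinb3a on 1 Double, 1 Mek1gof and 0 control arrays, so their values rest partly on background readings.

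Double minus Mek1gof differed by a direct test between slides for 130 genes, of which the 4 with the smallest p are given here. Slide 2 minus slide 1 was -4.12 for 1110017D15Rik, a gene with no name beyond its clone, 2.64 for the fast myosin Myh1, 3.38 for Mybpc2, a myosin binding protein of fast muscle, and 1.96 for 1700001C19Rik, which was detected on 2 Double and 2 Mek1gof arrays. 1110017D15Rik read 7.37, 8.37, 5.27 and 5.14 in Double skin, against 6.65, 6.78, 8.36 and 7.98 in Mek1gof skin, and so turned its direction between slides.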

How the results depend on the processing

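The 29 calls became 18 without background correction (6 lower), 23 with median centring (18 higher, 5 lower, so 78.3% higher against 62.1%), 4 with unnormalized signals (3 higher, 1 lower), 11 without a detection filter (7 and 4), 3 with only the groups compared (2 and 1), 192 on slide 1 alone (61 and 131), 76 on slide 2 alone (33 and 43), 15 with the muscle level as a covariate (10 and 5), 1 without Shp2lof 4, Mek1gof 2 and Double 4 (1 and 0), and 18 lower at an adjusted p of 0.1. Leaving out 1 array gave 5 to 36 calls (5 to 20 higher, 0 to 17 lower), 130 to 294 for Shp2lof, 7 to 19 interactions, 8 to 175 slide differences and slopes of 0.254 to 0.306. The 261 Shp2lof calls became 149 with unnormalized signals, 408 with only those groups, 463 with array weights, 108 on slide 1, 138 without those 3 arrays, 128 with the adipocyte level as a covariate and 439 at 0.1. The 9 interactions became 17 with array weights, 17 with slide as a block, 36 on slide 2, 14 with the Xist level, 5 without those 3 arrays and 15 at 0.1. The 130 slide differences became 63 with unnormalized signals, 7 without the filter, 8 without those 3 arrays and 312 at 0.1. The slope was 0.176 on slide 2 and 0.224 without those 3 arrays. Genes chosen on one slide and their Shp2lof effect taken from the other, added after the data were seen, gave slopes of 0.279 and 0.277. 1700001C19Rik was -0.98 on slide 1 alone. The causes were not tested. With the replicate number as a block, 27 genes passed (17 higher, 10 lower), 23 of the 29 among them. Same-numbered arrays correlated at 0.377, -0.0751, 0.13 and 0.247. Arrays of the same slide with different numbers correlated at 0.136, 0.19, 0.0738 and 0.331. These values show no pairing by number beyond slide, and with so few they cannot settle whether the numbers pair the samples. The slide difference was not run with array weights or covariates, nor the interaction with only the groups compared.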
